A study of Caenorhabditis elegans with 44 samples.

Results

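Small RNAs (sRNAs) of *pals-22(pig26)* animals were compared with those of wild-type animals in the *otIs356* background of *C. elegans*, gene by gene and as totals per gene biotype. Of the 44 libraries of the series, 7 enter this comparison: 3 of *pals-22(pig26); otIs356* and 4 of *otIs356* without the *pals-22* mutation, called wild type here. Of 46927 entries in the sRNA table, the 8042 with more than 5 RPM (reads scaled to a library of 1000000) in at least 1 of the 14 *otIs356* sRNA libraries were taken. The libraries of other genotypes among the 14 were of the *vsra-1* mutant and of the double mutant of *vsra-1* and *pals-22*. This rule used the level of a gene and not its difference between the genotypes compared. Of the 8042, 7346 passed it in at least 1 of the 7 libraries and 696 in a library of another genotype alone. Because the double mutant also carries a *pals-22* mutation, the rule can admit genes through a rise shared with it. It is therefore not neutral towards rises, and which genotype admitted a gene is not given here. They held 99.4% of the reads of the 7 libraries. The member nearest the limit reached 5.002 RPM in its highest library and the nearest entry left out 4.994 RPM.

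RNA came from whole L1 larvae, synchronized by hatching in M9 buffer overnight, of strains kept on *E. coli* OP-50. Both genotypes carry *otIs356* [*rab-3p(prom1)::2xNLS::TagRFP*], an integrated, repetitive transgene in which the neuronal *rab-3* promoter drives a nuclear red fluorescent protein. The allele *pig26* is a CRISPR deletion in *pals-22*, and its 3 libraries come from 1 strain. Nothing in the labels says that the libraries came from separate cultures, so p values measure the spread between these libraries, part of which may be technical. Poly(A) mRNA of the same genotypes (3 and 4 libraries) and sRNA of *pals-22(pig26)* and wild type without the transgene (N2, 3 libraries each) are set beside the sRNA values. Each library is a bulk sample of whole animals, in which fewer cells of a type and less RNA per cell cannot be told apart.

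In *C. elegans*, Dicer cuts double-stranded RNA into primary siRNAs, and RNA-dependent RNA polymerases then copy the targeted transcript into many secondary siRNAs that lie antisense to it and are loaded into Argonaute proteins. microRNAs (miRNAs), in contrast, are cut from hairpin transcripts and have sense sequence. PALS-22 belongs to a protein family that is greatly expanded in *C. elegans*. With its antagonist PALS-25, it sets the level of the intracellular pathogen response, a set of genes induced by viruses and microsporidia. Loss of PALS-22 switches that response on without infection and enhances silencing of repetitive transgenes.

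The 3 *pals-22(pig26)* libraries held 8072643 to 19984207 reads on genes (median 11722399) and the 4 wild-type libraries 7950015 to 21594026 (median 15523790), so that a count of 0 allows up to 0.372 and 0.377 RPM (3 counts, counting error only). CPM below are counts on the same scale after TMM scaling of the libraries. The mRNA libraries showed the defining markers of intestine, muscle, neurons and hypodermis in both genotypes. *dpy-7* (hypodermis) was at 79.5 to 149.9 RPM in *pals-22(pig26)* and 8.73 to 112.9 RPM in wild type. *myo-2* (pharyngeal muscle) was at 19.3 to 25.5 RPM in *pals-22(pig26)* and 8.48 to 67.2 RPM in wild type. The adult markers *vit-2* and *vit-6* summed to 1.72 to 4.01 RPM in *pals-22(pig26)* and 5.78 to 10.1 RPM in wild type, without overlap. No marker of these groups was called. The summed level of *myo-3* and *unc-54*, markers of body wall muscle, was 1109.6 to 1569.9 RPM in *pals-22(pig26)* and 1882 to 2759 RPM in wild type, and 1 of the 2 genes was called lower. Neuronal markers summed to 789.6 to 848 RPM in *pals-22(pig26)* and 589 to 1003 RPM in wild type, intestinal markers to 47.1 to 62.2 RPM in *pals-22(pig26)* and 48.1 to 59.3 RPM in wild type, with 1 of the 2 intestinal genes called higher and 1 lower, and none of these genes was at 0 in all 7 libraries. The part of such differences in the sRNA results was not tested. One library stood apart: *pals-22(pig26)* replicate 2 held 1.40% of its reads on rRNA genes and the 3 ncRNA genes opposite them, against 12.7% and 19.5% in the other 2 mutant libraries and 6.59 to 8.07% in wild type. Counts of called genes that change by more than 1.5 times without it are given beside the list.

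Reads on long intergenic RNA genes (lincRNA) made up a larger part of the mutant libraries, and reads on ncRNA genes a smaller one, but no biotype passed the test after adjustment when shares of all reads were compared. lincRNA genes took 15.4%, 18.3% and 13.6% of the reads in *pals-22(pig26)*, against 9.74%, 11.8%, 10.2% and 10.8% in wild type. All 3 mutant libraries lay above all 4 wild-type libraries, and the ratio of means was 1.48 (exact permutation test, two-sided: p = 0.0286, which no set of 35 arrangements can undercut; adjusted over 10 biotypes: 0.143). ncRNA genes took 44.3%, 39.6% and 48.6% in *pals-22(pig26)* and 49.98%, 48.3%, 54.7% and 52.1% in wild type, and these groups overlapped (ratio 0.861, exact permutation p = 0.0571, adjusted p = 0.19). Protein-coding genes took 27.2% ± 3.03 (SD, n = 3) in *pals-22(pig26)* and 27.0% ± 2.403 (SD, n = 4) in wild type. Pseudogenes stood at a ratio of 1.05, piRNA genes at 0.811, snoRNA genes at 1.18, antisense RNA genes at 0.881 and miRNA genes at 0.943. snRNA genes, with 0.0118% of the reads in *pals-22(pig26)* and 0.00872% in wild type, did not overlap between the groups (ratio 1.35, exact permutation p = 0.0286, adjusted p = 0.143). rRNA genes ranged from 0.472% in the library that stood apart to 5.04% in *pals-22(pig26)*, and from 1.15% to 2.03% in wild type. The outcome depended on the totals used. With TMM-scaled totals, protein-coding (ratio 0.951), lincRNA (1.39), antisense RNA (0.838) and snRNA genes (1.26) each reached an adjusted p of 0.0714 in the exact permutation test. With ncRNA reads left out of the totals, protein-coding (0.878), lincRNA (1.29), pseudogenes (0.916) and antisense RNA (0.772) each reached 0.0643. The protein-coding ratio, 1.01 in shares of all reads, was thus below 1 in both. With rRNA-derived reads left out of sums and totals, an alternative chosen after the data were seen, ncRNA (0.828), lincRNA (1.54) and snRNA (1.40) each reached an adjusted p of 0.0857.

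**Figure D1:**
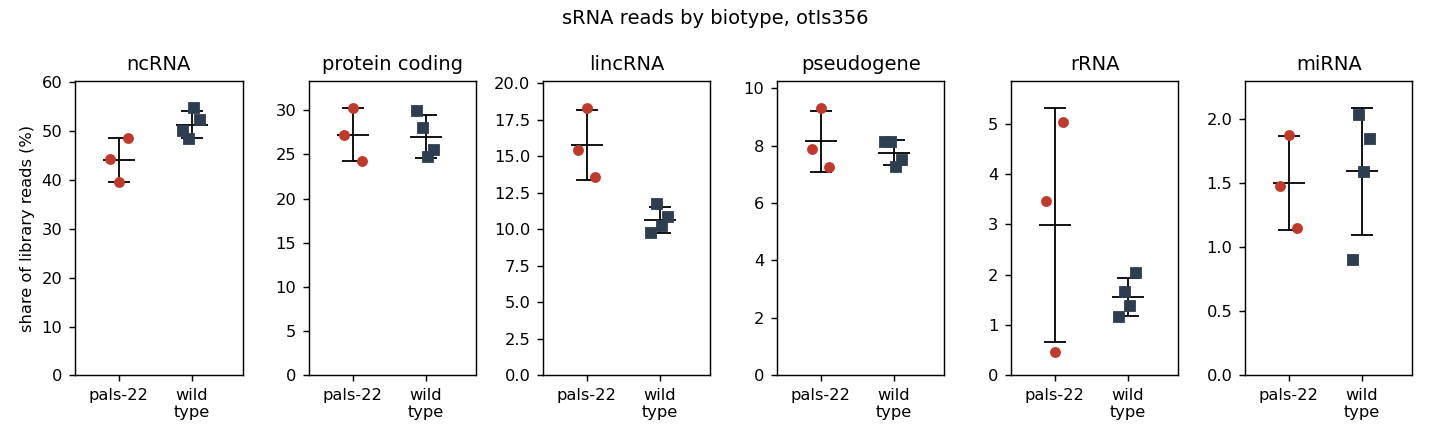
Share of each library's sRNA reads (%, vertical axis, each panel on its own scale from 0) on genes of 6 biotypes in *pals-22(pig26)* (circles, 3 libraries) and wild type (squares, 4 libraries), both with *otIs356*. Horizontal bars are means and whiskers SD. Counts are of reads antisense to each gene, so the miRNA panel does not give miRNA levels. The lincRNA points of the groups do not overlap, and the rRNA points of *pals-22(pig26)* run from 0.472% to 5.04%.

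1 gene led each of the large non-coding biotypes. *linc-22* held 73.0% of the lincRNA reads, and its level was 117644, 127151 and 118699 CPM in *pals-22(pig26)*, against 60371, 88673, 85286 and 89062 CPM in wild type. The mutant libraries all lay above wild type (log2 fold change 0.58, SE 0.19, adjusted p = 0.0477). This and all further adjusted p values of genes come from the quasi-likelihood test of edgeR with the Benjamini-Hochberg method, for sRNA over the 8042 genes. The call was lost without *pals-22(pig26)* replicate 2 and in a fit of the 7 libraries alone, where its adjusted p reached up to 0.191. Without the leading gene of each biotype the lincRNA ratio was 1.197. Gene by gene, 9 of 49 lincRNA genes tested were called higher and 12 lower, with a median log2 fold change of −0.02. Of 25 snRNA genes, 1 was called higher and 1 lower, with a median of 0.73. Over all genes tested, 11.7% were called higher and 14.6% lower. T09B4.14 on chromosome I held 32.1% of the ncRNA reads, at 94216, 141855 and 85217 CPM in *pals-22(pig26)* and 184916, 170671, 222462 and 166667 CPM in wild type. It lies opposite the miRNA gene *cel-mir-1*. All 3 mutant libraries were lower (log2 fold change −0.80, SE 0.21, adjusted p = 0.0155, and not called in a fit of the 7 libraries alone, with 0.169).

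Much of the ncRNA biotype lay opposite miRNA genes. By their values, counts in the table are those of reads antisense to each gene: the entry of *cel-mir-1* averaged 0.0633 RPM over the 7 libraries, that of *cel-mir-52* 0.456 RPM and that of *cel-mir-45* 0.249 RPM, while the genes annotated on the opposite strand ranked among the most abundant. The 66 genes with a miRNA on the opposite strand held 30.4%, 37.6% and 27.0% of the reads in *pals-22(pig26)*, against 38.1%, 39.2%, 45.6% and 44.9% in wild type. The mutant libraries all lay below wild type, and the ratio of means was 0.756 (exact permutation test, two-sided: p = 0.0286, again the lowest that can be had). The means were 31.7% in *pals-22(pig26)* and 41.9% in wild type. Much of this difference lay in T09B4.14 (10.8% and 17.2%) and F16A11.6 (3.65% and 6.57%). The entry opposite *cel-mir-52* went the other way, at 7.02% in *pals-22(pig26)* and 6.30% in wild type. The ncRNA genes without a miRNA opposite them took 14.7% ± 9.39 (SD, n = 3) in *pals-22(pig26)* and 11.7% ± 1.53 (SD, n = 4) in wild type. Of the genes opposite a miRNA, 41 were tested, and of these 4 were called higher and 6 lower, where 11.7% of all genes tested were called higher and 14.6% lower. Without *pals-22(pig26)* replicate 2, 3 were called higher and 3 lower, and 3 were lower with library totals alone. Their median log2 fold change was −0.19, beside −0.01 over all genes. In N2, 2 were higher and 23 lower of 38, where 18.3% of all genes were called higher and 20.8% lower.

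The sequences of the miRNAs opposite 4 of the 6 largest of these entries are shown because the reads of these entries lie on the strand of the miRNA. Both arms of each hairpin are given, since the table counts genes and does not tell which arm was read. They are mature sequences from RefSeq (WBcel235), written 5′ to 3′ with bases 2 to 8, the seed that pairs with targets, in capitals.
mir-52, 5′ arm (IV:14034024-14034047, + strand): cACCCGTAcatatgtttccgtgct
mir-52, 3′ arm (IV:14034065-14034086, + strand): cACGTTACaatgaaagggtagc
mir-55, 3′ arm (X:13144842-13144864, − strand): tACCCGTAtaagtttctgctgag
mir-55, 5′ arm (X:13144881-13144902, − strand): cGGCAGAAacctatcggttata
mir-45, 3′ arm (II:11880959-11880979, − strand): tGACTAGAgacacattcagct
mir-45, 5′ arm (II:11881004-11881025, − strand): cTGGATGTgctcgttagtcata
mir-90, 3′ arm (III:8874001-8874023, − strand): tGATATGTtgtttgaatgcccct
mir-90, 5′ arm (III:8874047-8874069, − strand): cGGCTTTCaacgacgatatcaac

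The 5′ arm of mir-52 and the 3′ arm of mir-55 share the seed ACCCGTA. The entry opposite mir-52 (WBGene00199919) held 6.09%, 7.20% and 7.77% of the reads in *pals-22(pig26)* and 2.65%, 4.11%, 8.42% and 10.04% in wild type, and the one opposite mir-55 (*cel-mir-55b*) 1.41%, 1.78% and 1.078% in *pals-22(pig26)* and 0.821%, 1.96%, 1.51% and 1.75% in wild type. In both pairs the wild-type libraries spanned the mutant ones, and neither gene was called (log2 fold change 0.04 and −0.21). ZK930.13, opposite mir-45, was at 3.76% in *pals-22(pig26)* and 4.64% in wild type, and K01F9.7, opposite mir-90, at 1.37% in *pals-22(pig26)* and 1.47% in wild type, and neither of these was called. Called lower, besides T09B4.14, was F16A11.6 (chromosome I, opposite *cel-mir-71*), which held 3.65% ± 0.631 (SD, n = 3) of the reads in *pals-22(pig26)* and 6.57% ± 1.34 (SD, n = 4) in wild type (log2 fold change −0.95, adjusted p = 0.0246). F10C2.11 (V:12038653-12039151), opposite *cel-mir-87*, had 3236, 3673 and 2721 CPM in *pals-22(pig26)* and 5629.9, 5706, 5618 and 5039.5 CPM in wild type (−0.78, SE 0.18, adjusted p = 0.00675). ZK384.7, opposite *mir-262*, went the other way, with 3349, 3936 and 4352 CPM in *pals-22(pig26)* and 1670.2, 1649, 2217 and 1933 CPM in wild type (1.05, SE 0.14, adjusted p = 9.69e-05).

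Across all genes, 942 were called higher in *pals-22(pig26)*, which is 11.7% of those tested, and 1174 lower, which is 14.6%, at an adjusted p under 0.1. The median log2 fold change was −0.01. Most calls were of small changes: 491 of the rises and 892 of the falls were under 2-fold. Large changes were mostly rises, with 261 higher by over 4-fold against 63 lower, and 103 higher by over 16-fold against 9. The filter took many of these rises in through libraries of another genotype, and these include the double mutant with a *pals-22* mutation. In any of the 7 libraries, 154 of the 261 rises and 63 of the 103 exceeded 5 RPM, against 59 of the 63 falls. The large rises started from very low levels. The median of the 103 genes was 4.14 CPM in *pals-22(pig26)* and 0.101 CPM in wild type, where 5 of them had 0 counts in all 4 libraries together and 29 had 1 to 3. The groups did not overlap in 100 of the 103. Over all genes the mutant libraries lay above every wild-type library in 1119 (13.9%) and below in 1264 (15.7%). With library totals in place of TMM factors, the median log2 fold change moved to 0.09 and the calls to 1055 higher and 742 lower, so that 58.7% of the calls were rises in place of 44.5%.

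The 10 largest rises, among called genes with an average of at least 5 CPM and no overlap, were all protein-coding, and 7 of them lie on chromosome V. ZC196.3 (V:8736669-8738521) had 11.8, 16.2 and 14.5 CPM in *pals-22(pig26)* and 0.0730, 0, 0 and 0 CPM in wild type. B0507.6 (V:8746158-8750197) and B0507.9 (V:8764953-8766038), its near neighbours, had 12.1, 15.7 and 13.7 CPM and 7.92, 15.2 and 10.8 CPM in *pals-22(pig26)*, against at most 0.296 CPM in any wild-type library for either gene. Thus sRNAs that were close to absent in wild type were found in each mutant library. ZC196.3 rested on 1 wild-type read, so its ratio of 820 has a counting interval of 147 to 32447 (95%, exact, counting error only). Y6E2A.7 likewise had 4.17, 7.09 and 5.49 CPM in *pals-22(pig26)* and 1 read in all of wild type (ratio 334, interval 59.4 to 13251). Y39H10B.3 (V:3670799-3672239) and *pals-33* (V:3673380-3676632), a member of the *pals* family, are neighbours too. They had 5.88, 10.3 and 10.7 CPM and 17.04, 25.4 and 17.9 CPM in *pals-22(pig26)*, against at most 0.0730 and 0.356 CPM in wild type. The other members of the group were *pals-11*, F15H10.10, C49A9.3 and *fbxa-75*, the last of which encodes an F-box protein, the substrate adaptor of a ubiquitin ligase. *fbxa-75* stood at 18.1, 29.99 and 24.1 CPM in *pals-22(pig26)* and 0.511, 0.178, 0.381 and 0.143 CPM in wild type (log2 fold change 6.20, SE 0.79, adjusted p = 5.91e-05). All 10 were also called higher in N2.

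**Figure D2:**
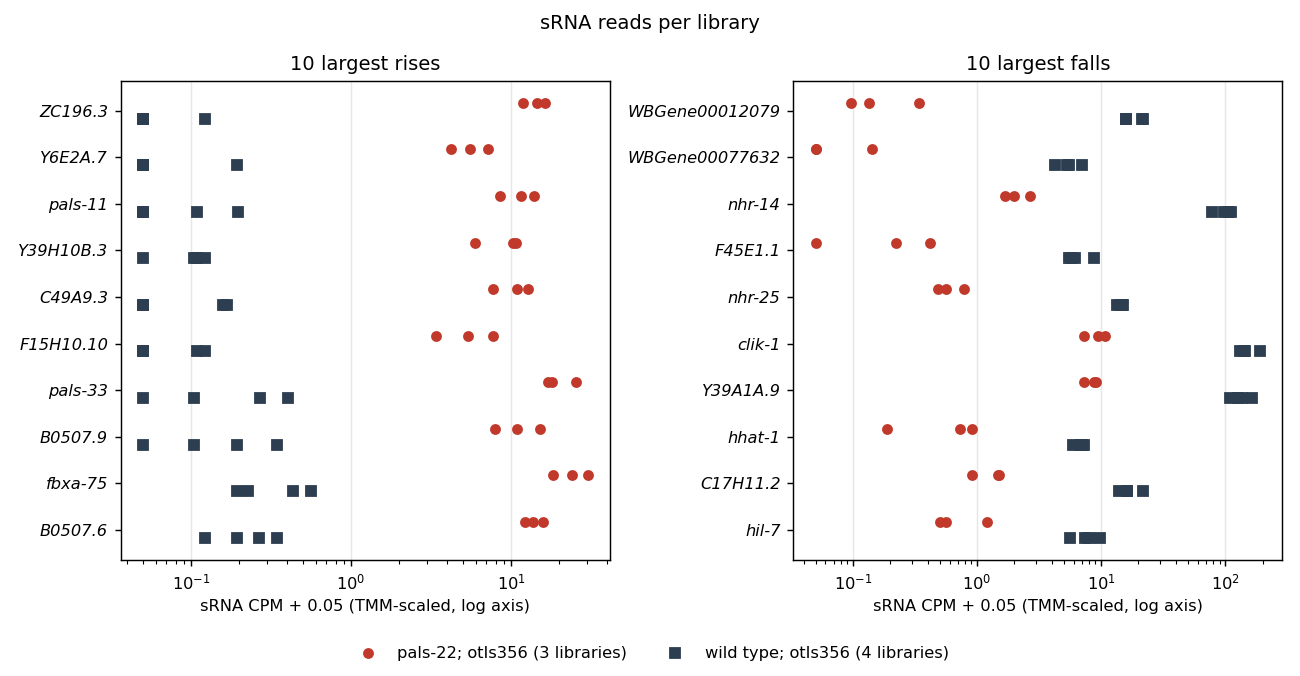
sRNA level in each library (CPM + 0.05, log axis) of the 10 called genes with the largest rise and the 10 with the largest fall in *pals-22(pig26); otIs356* (circles, 3 libraries) against wild type with *otIs356* (squares, 4 libraries). A point at 0.05 is a count of 0. No gene has overlapping groups, and *nhr-14* stands at 1.62 to 2.60 CPM in *pals-22(pig26)* against 78.7 to 112 CPM in wild type.

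Most of the *pals* genes that passed the filter carried more sRNAs. Of 37 annotated *pals* genes other than *pals-22*, 18 passed the filter, and of these 14 were called higher and 1 lower, with a median log2 fold change of 3.81. The filter admits some members only through the group where they are high, so the 18 do not stand for the family, and *pals-3*, *pals-4*, *pals-5*, *pals-6* and *pals-9* passed it through a library of another genotype alone. Their mRNA was called higher in 18 of 18, where 5.78% of the 16724 mRNAs tested were called higher and 5.1% lower. *pals-11* (I:13124168-13126650) had 8.52, 13.9 and 11.4 CPM in *pals-22(pig26)* and 0.146, 0.0593, 0 and 0 CPM in wild type, where 35.1% of its 22-base words occur elsewhere in the genome. *pals-38* stood at 9.80, 14.5 and 12.1 CPM in *pals-22(pig26)* and 0.876, 0.652, 0.326 and 0.428 CPM in wild type (log2 fold change 4.39, SE 0.42, adjusted p = 4.65e-06). The groups were well apart for both genes. *pals-25*, the antagonist of *pals-22*, rose by less, with 26.5, 32.1 and 32.1 CPM in *pals-22(pig26)* and 22.3, 19.7, 21.6 and 22.3 CPM in wild type (0.50, SE 0.08, adjusted p = 0.000672). Without *pals-22(pig26)* replicate 2, 10 of the 18 were called higher.

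4 members of the family did not rise in sRNA although their mRNA did. sRNA on *pals-1* was 18.998, 15.6 and 19.2 CPM in *pals-22(pig26)* and 17.6, 18.9, 18.3 and 17.6 CPM in wild type, beside a log2 fold change of 6.80 in its mRNA. *pals-14* had 8.60, 9.19 and 7.95 CPM in *pals-22(pig26)* and 8.47, 9.13, 8.27 and 7.28 CPM in wild type, with 5.63 in mRNA. The groups overlapped for both, and also for *pals-30*. *pals-31* was called lower, with 1.87, 3.02 and 3.03 CPM in *pals-22(pig26)* and 9.42, 7.17, 7.94 and 8.71 CPM in wild type (−1.65, SE 0.18, adjusted p = 1.40e-05), while its mRNA was called higher by 2.81. The fall of *pals-31* differed from its change in N2 (difference −2.10, adjusted p = 0.000975). So did the change of *pals-14*, which was called higher in N2 (0.70, adjusted p = 0.000130), with a difference of −0.63 (adjusted p = 0.00931).

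Of 13 response genes outside the family, 4 passed the filter and these 4 were called higher, where 11.7% of all genes tested were. A gene near 0 in wild type can pass only where it is high, so the 4 do not stand for the list, and *cul-6* passed through a library of another genotype alone. *eol-1*, a homolog of the mammalian decapping enzyme DXO, had 12.7, 20.3 and 18.8 CPM in *pals-22(pig26)* and 0.365, 0.296, 0.435 and 1.143 CPM in wild type (log2 fold change 5.13, SE 0.40, adjusted p = 5.82e-07). *cul-6*, a cullin of the response, had 0.767, 1.74 and 1.01 CPM in *pals-22(pig26)* and 3 reads in all of wild type (ratio 24.9, counting interval 8.06 to 124). *zip-1*, a transcription factor needed for part of the response, changed least, with 7.24, 8.87 and 8.82 CPM in *pals-22(pig26)* and 5.47, 4.504, 5.004 and 6.14 CPM in wild type (0.67, SE 0.23, adjusted p = 0.0546). Its groups did not overlap, but the call was lost when any 1 of 4 libraries was left out (adjusted p up to 0.155). mRNA was called higher for all 4 genes. Without *pals-22(pig26)* replicate 2, 2 of the 4 were called.

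F-box genes, which encode adaptors of ubiquitin ligases, and MATH-domain genes changed in both directions. Both are among the fastest expanding families of nematodes. Of 79 *fbxa* genes tested, 18 were called higher and 24 lower, where 11.7% of all genes tested were higher and 14.6% lower. The median log2 fold change of the 79 was −0.02. The rises were larger than the falls, up to 6.20 against −1.79. *fbxa-47* (III:2229992-2232460) carried by far the most sRNA of those that rose, with 900.3, 1147 and 1219 CPM in *pals-22(pig26)* and 33.1, 34.2, 21.3 and 25.3 CPM in wild type (5.26, SE 0.23, adjusted p = 3.46e-09). *fbxa-30* had 132, 149 and 157 CPM in *pals-22(pig26)* and 17.6, 16.8, 17.4 and 12.6 CPM in wild type (3.17, SE 0.13, adjusted p = 1.71e-09). The groups were far apart for both genes, and the mRNA of both was called higher. In mRNA, 27 of 74 *fbxa* genes were called higher and 1 lower, beside 5.78% and 5.1% of all mRNAs tested. *fbxa-188*, chosen after its values were seen, had 9.20, 10.8 and 8.53 CPM in *pals-22(pig26)* and 38.7, 31.1, 33.9 and 28.8 CPM in wild type, below wild type in every library, while its mRNA was called higher by 2.27. Of 44 *fbxb* genes, 10 were higher and 14 lower, and 9 were lower without *pals-22(pig26)* replicate 2 or with library totals alone. *fbxb-99* had 22.1, 20.2 and 16.04 CPM in *pals-22(pig26)* and 6.64, 4.92, 8.32 and 8.14 CPM in wild type (1.49, adjusted p = 3.84e-05), whereas in N2 it was called lower (−0.62).

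MATH-domain genes were counted in 2 branches. Beside all counts of this paragraph stand the shares over all genes tested, 11.7% higher and 14.6% lower. Of 12 *math* genes, 7 were called higher and 3 lower (1 lower without *pals-22(pig26)* replicate 2), and of 27 *bath* genes, which add a BTB domain, 0 were higher and 9 lower in edgeR. DESeq2 gave the same counts, 0 *bath* genes were higher at an unadjusted p under 0.05, and the *bath* falls numbered 3 when libraries were scaled by their totals alone. The difference between the branches was not tested. *math-22* (II:1905404-1907831) had 30.1, 32.5 and 48.1 CPM in *pals-22(pig26)* and 2.63, 2.67, 2.07 and 2.57 CPM in wild type (log2 fold change 3.89, SE 0.25, adjusted p = 7.50e-08). The neighbouring *math-24* (II:1900234-1901975) had 32.97, 34.7 and 50.1 CPM in *pals-22(pig26)* and 5.04, 4.86, 5.22 and 6.28 CPM in wild type (2.88, SE 0.16, adjusted p = 2.36e-08). Replicate 3 of *pals-22(pig26)* was the highest for both, and 25.99% and 20.9% of their 22-base words are shared with other places, so reads may have moved between copies. *bath-45*, named after its values were seen, had 1095, 1131 and 1074 CPM in *pals-22(pig26)* and 1912, 1674, 1465 and 1467 CPM in wild type. Of 24 C-type lectin genes (*clec*), 12 were called higher and 3 lower, with a median of 1.03. *clec-84* had 6.39, 7.95 and 8.67 CPM in *pals-22(pig26)* and 1.17, 2.01, 1.52 and 1.43 CPM in wild type (2.304, SE 0.28, adjusted p = 3.57e-05), and *clec-166* averaged 338 CPM in *pals-22(pig26)* and 142 CPM in wild type (1.25). Both chemoreceptor genes of the *srh* family that were tested, *srh-87* and *srh-213*, were called lower (−0.56 and −0.71), and each call was lost without 1 or more libraries.

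The 10 largest falls were of another kind. They include 2 pseudogenes on chromosome V, the nuclear hormone receptors *nhr-14* and *nhr-25*, and *clik-1*, which encodes a calponin-like muscle protein. WBGene00012079 (V:17412602-17413098) had 0.0852, 0.0457 and 0.289 CPM in *pals-22(pig26)* and 21.5, 21.5, 15.9 and 15.9 CPM in wild type (log2 fold change −7.42, SE 0.43, adjusted p = 4.39e-08). The other pseudogene, WBGene00077632 (V:17407974-17408383), had 0, 0.0914 and 0 CPM in *pals-22(pig26)* and 4.23, 6.99, 5.28 and 5.43 CPM in wild type. sRNAs on both were thus at or near 0 in each mutant library. *nhr-14* (X:8473722-8476178) had 1.62, 1.92 and 2.60 CPM in *pals-22(pig26)* and 112, 97.0, 105 and 78.7 CPM in wild type (−5.63, SE 0.19, adjusted p = 4.99e-10). *nhr-25* (X:13008493-13013964), which acts in molting and in the epidermis, had 0.511, 0.731 and 0.434 CPM in *pals-22(pig26)* and 14.7, 14.99, 13.3 and 14.4 CPM in wild type (−4.55, SE 0.15, adjusted p = 4.95e-10). All wild-type libraries carried these sRNAs at like levels. *clik-1* (V:6765768-6768732) had 9.46, 7.18 and 10.7 CPM in *pals-22(pig26)* and 191, 132, 143 and 144 CPM in wild type (−4.09, SE 0.18, adjusted p = 3.86e-09), and T25F10.1 overlaps it on the opposite strand.

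Y39A1A.9 (III:10630070-10633501) fell to 8.77, 7.22 and 8.96 CPM in *pals-22(pig26)*, against 165, 126, 136 and 109 CPM in wild type (log2 fold change −4.02, SE 0.16, adjusted p = 1.71e-09). C17H11.2 on the X chromosome had 1.45, 1.42 and 0.867 CPM in *pals-22(pig26)* and 16.2, 13.99, 16.3 and 21.7 CPM in wild type. F45E1.1, also on X, had a log2 fold change of −4.79, and *hhat-1*, a homolog of Hedgehog acyltransferase whose exons overlap *unc-52* on the opposite strand, −3.80. *hil-7*, a linker histone gene, had 0.511, 0.457 and 1.16 CPM in *pals-22(pig26)* and 7.30, 8.0003, 9.74 and 5.57 CPM in wild type (−3.58, SE 0.36, adjusted p = 6.38e-06). Unlike the largest rises named above, of which all but C49A9.3 were called higher in mRNA, these falls were seldom matched there. Of the 8 genes with an mRNA value, *clik-1* was called (−0.91, adjusted p = 0.035) and 7 were not.

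Most of the large falls differed between *otIs356* and N2 animals. In a joint fit, 711 genes (9.15% of 7774) had a more positive change in *otIs356* than in N2 and 608 (7.82%) a more negative one. Of the 10 largest falls, 9 had a more negative change in *otIs356*, all but WBGene00077632. In N2, *clik-1* and Y39A1A.9 alone passed the filter, while the other 8 genes were at or under 5 RPM in each N2 library. *clik-1* was at 5.57 CPM in N2 *pals-22(pig26)* and 2.32 CPM in N2 wild type, a rise of 1.25 on the log2 scale (adjusted p = 0.000348), so that its change differed by −5.32 between the backgrounds (adjusted p = 2.50e-08). Y39A1A.9, at 6.28 CPM in N2 *pals-22(pig26)* and 2.08 CPM in N2 wild type, rose there as well, and its change in *otIs356* differed by −5.59. In wild type, the level of *clik-1* was 153 CPM with *otIs356* and that of Y39A1A.9 134 CPM. These tables were scaled separately, and the levels were not tested against those of N2. Of the 63 genes lower by over 4-fold, 52 of 59 tested differed from N2 in the same direction. The joint fit uses the same 7 *otIs356* libraries, so this count is no second measurement of the falls, and strain background and sequencing experiment cannot be told apart.

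**Figure D3:**
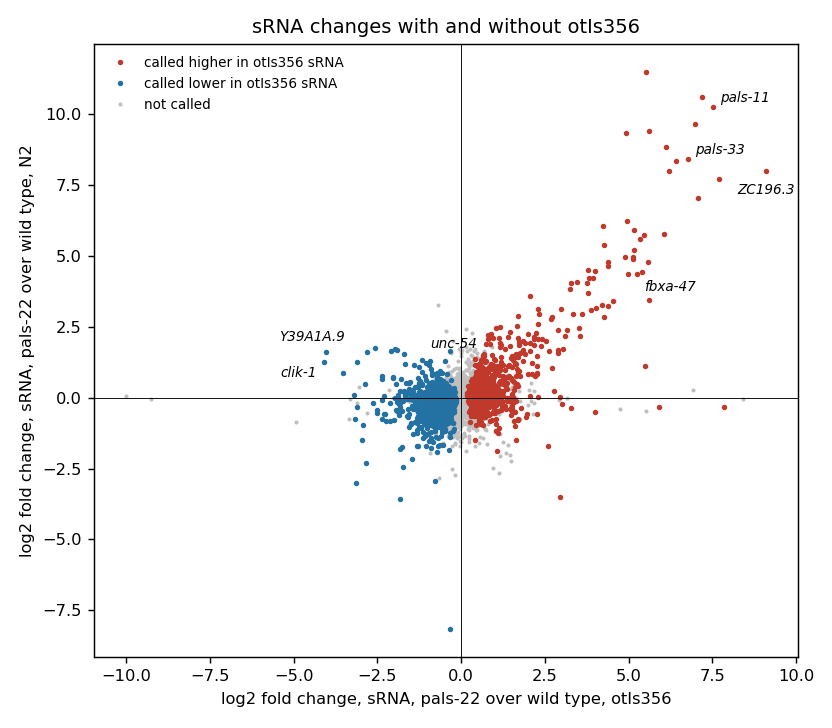
log2 fold change of sRNA, *pals-22(pig26)* over wild type, in *otIs356* (horizontal) and in N2 (vertical), for the 6964 genes tested in both. Colours give the *otIs356* call, with no library shared between the axes. Of the 103 genes higher by over 16-fold in *otIs356*, the 39 that passed the N2 filter are shown. That filter favours genes high in the mutant. Of the 39, 37 were called higher in N2, but not all lie near the diagonal, with *pals-11* at 7.52 and 10.2. *clik-1* and Y39A1A.9 are at −4.09 and −4.02 in *otIs356* and at 1.25 and 1.598 in N2.

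Most of the large rises that could be tested in N2 were called higher there too. A gene near 0 in N2 wild type passes the filter only through the N2 mutant libraries, so the genes tested there were largely those already high in that mutant, and their share does not stand for all large rises. Of the 103 genes higher by over 16-fold, 39 were tested in N2, and 37 of these were called higher there and 0 lower by edgeR (1 lower at an unadjusted p under 0.05, and 1 by DESeq2). Of the genes tested there, the share called higher in N2 was 82.1% of those higher by 4- to 16-fold, 53.4% of those higher by 2- to 4-fold and 36.2% of those higher by less. Over all calls, 333 genes were higher in both backgrounds, which is 35.4% of the *otIs356* rises and 25.1% of the N2 rises, and 585 were lower in both, 49.8% and 38.8%. Across 6964 genes Spearman's rho of the log2 fold changes was 0.327, given as a description since genes are not replicates. In the joint fit *fbxa-47* rose more in *otIs356* (difference 0.95, adjusted p = 0.0159), and B0507.6 less (−2.63, adjusted p = 0.0775).

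**Figure D4:**
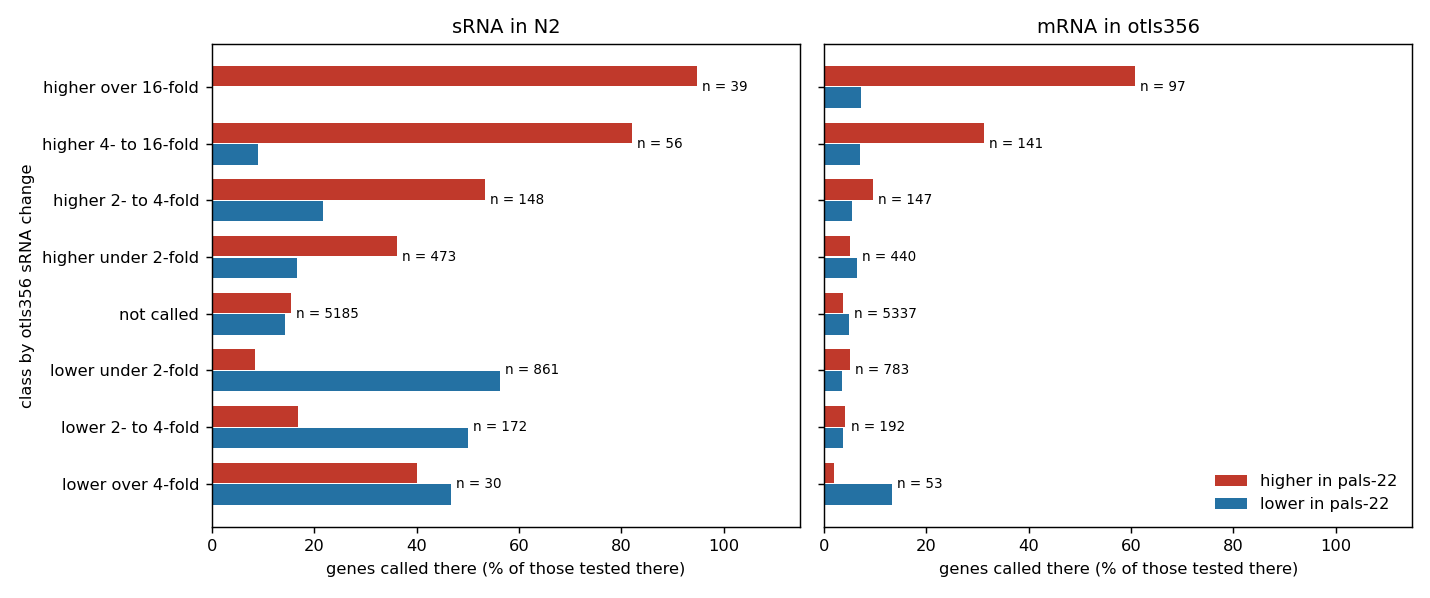
Share of genes called higher (red) and lower (blue) in *pals-22(pig26)* in 2 other readouts, sRNA in N2 (left) and mRNA in *otIs356* (right), as % of the genes tested there, by the size of their sRNA change in *otIs356*. At the top, of the 103 genes higher by over 16-fold, 39 passed the filter in N2, which favours genes high in the mutant, and 94.9% of these were higher there, while 60.8% of the 97 with an mRNA value were higher in mRNA.

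Many genes whose sRNA rose by over 4-fold also had a higher mRNA. Of the 103 genes, 97 had an mRNA value, and 59 of these (60.8%) were called higher and 7 (7.22%) lower. Among genes higher by 4- to 16-fold, 44 of 141 (31.2%) had a higher mRNA, and among those higher by less than 2-fold, 22 of 440 (5.0%). Of the 63 genes lower by over 4-fold, 1 of 53 was higher and 7 were lower in mRNA. Among all 7190 genes with both values, 387 were higher and 358 lower in mRNA, and Spearman's rho was 0.013 (a description, across genes). The mRNA counts depended on single libraries: over all 16724 genes, 967 were higher and 853 lower, but 2883 and 2501 without wild-type replicate 4, and 533 and 95 without *pals-22(pig26)* replicate 2. For the 97 genes the count higher was 60 and 53 in these fits, and the count lower 11 and 0. For the falls of over 4-fold it was 11 and 0 higher, and 13 and 1 lower.

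**Figure D5:**
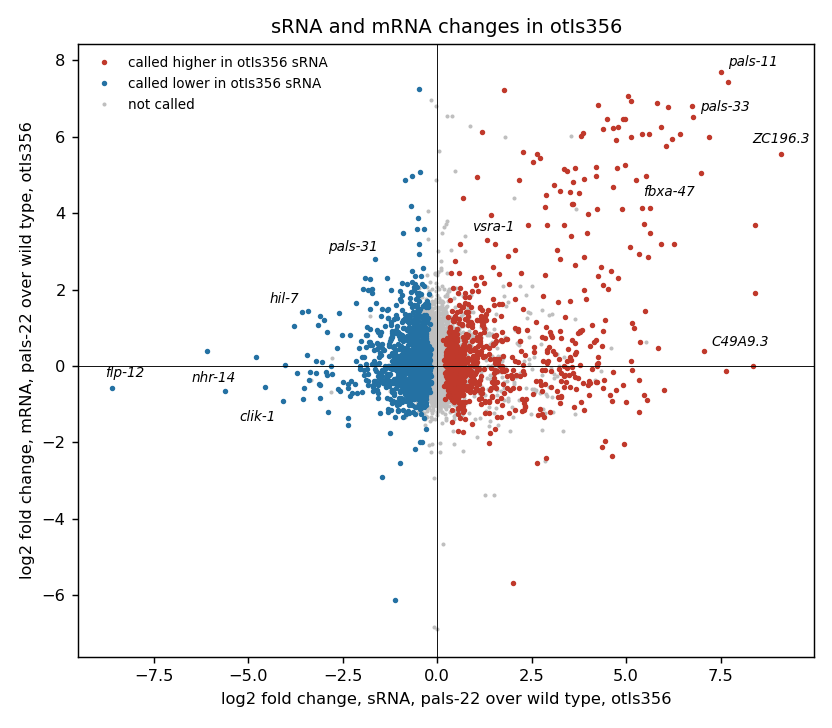
log2 fold change of sRNA (horizontal) and of mRNA (vertical), *pals-22(pig26)* over wild type in *otIs356*, for the 7190 genes tested in both. Colours give the sRNA call. *pals-11* is at 7.52 and 7.70, C49A9.3 at 7.06 and 0.39, *nhr-14* at −5.63 and −0.65, and *pals-31* at −1.65 and 2.81.

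C49A9.3 (IV:6222089-6225009) was the exception among the 10 largest rises. Its sRNAs stood at 7.67, 12.7 and 10.8 CPM in *pals-22(pig26)* and 0, 0.119, 0.109 and 0 CPM in wild type (log2 fold change 7.06, SE 0.68, adjusted p = 4.37e-06), with every mutant library far above wild type. Its mRNA averaged 9.07 CPM in *pals-22(pig26)* and 6.95 CPM in wild type and was not called (0.39, adjusted p = 0.517). It shares exon sequence with C49A9.4 on the same strand, so the reads of the pair cannot be told apart. For the other 9, mRNA log2 fold changes ran from 5.05 (F15H10.10) to 7.70 (*pals-11*).

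Genes of the RNAi machinery were examined as targets of sRNAs. For comparison, 11.7% of all genes tested were called higher and 14.6% lower. Of 19 Argonaute genes, 15 were tested, and edgeR called 0 higher and 4 lower (2 lower with library totals alone). Their median log2 fold change was −0.10. DESeq2 gave the same counts, and 0 were higher at an unadjusted p under 0.05. *ergo-1*, the Argonaute of 26G-RNAs, had 37.1, 39.3 and 42.8 CPM in *pals-22(pig26)* and 52.8, 47.8, 59.0 and 50.8 CPM in wild type (−0.41, SE 0.11, adjusted p = 0.0144). *alg-1*, a miRNA Argonaute, had 7.24, 9.65 and 9.83 CPM in *pals-22(pig26)* and 17.2, 19.1, 19.7 and 13.3 CPM in wild type (−0.97, SE 0.29, adjusted p = 0.0287), a call lost when mutant replicate 1 was left out (0.124). Both were below wild type in every library. *wago-4* and *wago-1*, which bind secondary siRNAs, fell by 0.21 each on the log2 scale. 5 of the 15 mRNAs were called higher, where 5.78% of all mRNAs tested were, and these 5 were not the genes with fewer sRNAs. mRNA of *vsra-1* averaged 136 CPM in *pals-22(pig26)* and 12.9 CPM in wild type, whereas its sRNAs were at 8.18, 10.5 and 9.68 CPM in *pals-22(pig26)* and 2.41, 5.0965, 7.29 and 8.28 CPM in wild type, with overlap, and were not called (0.73, adjusted p = 0.182). *sago-2*, with 3.04 in mRNA, had 13.1, 14.1 and 13.9 CPM of sRNA in *pals-22(pig26)* and 12.1, 9.90, 8.27 and 12.6 CPM in wild type (0.37, adjusted p = 0.176). Of its 22-base words, 86.6% occur elsewhere, so its value is uncertain.

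Of 18 tested genes of dsRNA recognition and siRNA amplification, 1 was called higher and 1 lower, and 0 higher and 1 lower without *pals-22(pig26)* replicate 2. The shares over all genes tested were 11.7% higher and 14.6% lower. *mut-2*, a nucleotidyltransferase that tails RNAs as templates for amplification, had 10.1, 11.5 and 10.1 CPM in *pals-22(pig26)* and 16.9, 16.2, 17.9 and 12.3 CPM in wild type (log2 fold change −0.59, SE 0.12, adjusted p = 0.00264). *rde-4*, the dsRNA-binding partner of Dicer, had 31.4, 30.03 and 29.9 CPM in *pals-22(pig26)* and 18.4, 23.9, 26.3 and 26.6 CPM in wild type (0.36, adjusted p = 0.0925), a call lost in 6 of 15 alternatives. *drh-1*, the RIG-I homolog that senses viral RNA, had 38.0, 39.3 and 29.8 CPM in *pals-22(pig26)* and 30.8, 33.5, 35.95 and 34.0 CPM in wild type, with overlap, beside a log2 fold change of 2.58 in mRNA. The polymerase gene *rrf-1* was not called (0.16, adjusted p = 0.126). Of the 7 genes of the 26G pathway 0 were called in either direction by edgeR, by DESeq2 and at an unadjusted p under 0.05. The lowest adjusted p was that of *eri-7* (0.419), and *eri-6* followed with 678, 666 and 665 CPM in *pals-22(pig26)* and 668, 708, 677 and 742 CPM in wild type.

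Abundant endogenous siRNA targets changed in both directions. Of 7 ERGO-1 class targets tested, 2 were called higher and 2 lower, and 1 higher and 3 lower without *pals-22(pig26)* replicate 2. Among all genes tested, 11.7% were called higher and 14.6% lower. K02E2.6 (V:20380561-20382036) had 9126, 10439 and 10483 CPM in *pals-22(pig26)* and 4415, 3085, 3616 and 2978 CPM in wild type (log2 fold change 1.51, SE 0.14, adjusted p = 2.57e-06), and every mutant library lay above wild type. *linc-22* was the other rise. E01G4.5 (−0.33, adjusted p = 0.057) and Y37E11B.2 (−0.28, adjusted p = 0.0637) were lower, and neither was called when library totals alone set the scale. W04B5.8 (III:2426316-2429381), the protein-coding gene with most reads, had 13857, 14642 and 16239 CPM in *pals-22(pig26)* and 6905, 7307, 8099 and 8069 CPM in wild type (0.97, SE 0.11, adjusted p = 1.87e-05). It overlaps WBGene00021018 on the same strand. The pseudogene with most reads, WBGene00045366, differed little, with 24908, 27946 and 27088 CPM in *pals-22(pig26)* and 23376, 26304, 24332 and 23314 CPM in wild type.

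Among highly expressed housekeeping genes, sRNAs antisense to some ribosomal protein genes rose. Of 59 *rpl* and *rps* genes, 22 were called higher, where 11.7% of all genes were, and 0 lower by edgeR (0 lower also in DESeq2 and at an unadjusted p under 0.05), with a median log2 fold change of 0.32 that was 0.39 with library totals alone. *rpl-19* had 12.01, 10.01 and 12.3 CPM in *pals-22(pig26)* and 7.74, 7.64, 6.74 and 5.86 CPM in wild type (0.69, SE 0.14, adjusted p = 0.00234), and *rps-29* 6.56, 4.39 and 5.49 CPM in *pals-22(pig26)* and 2.85, 3.02, 2.61 and 3.28 CPM in wild type. The groups did not overlap for either. In mRNA, 14 of the 59 were called lower and 0 higher (52 and 0 at an unadjusted p under 0.05, 45 and 0 by DESeq2), where 5.1% of all mRNAs tested were lower. In N2 sRNA 39 were higher and 0 lower (42 and 0, 36 and 0), where 18.3% of all genes tested there were higher. Of 45 histone genes, 2 were called higher and 0 lower by edgeR (1 lower at an unadjusted p under 0.05, 0 by DESeq2) at a median of 0.53, and both calls, *his-67* and *his-41*, were lost without *pals-22(pig26)* replicate 2 (adjusted p = 0.115 and 0.117). Of 10 collagen genes, 1 was higher and 5 lower, and 3 higher and 4 lower without that library. Beside these histone and collagen counts stand 11.7% higher and 14.6% lower over all genes tested. *col-38* had 7.58, 6.17 and 7.80 CPM in *pals-22(pig26)* and 18.4, 17.9, 16.7 and 18.995 CPM in wild type (−1.34, SE 0.10, adjusted p = 2.51e-07).

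Reads antisense to rRNA genes did not all move one way, and the rRNA biotype as a whole did not pass (exact permutation p = 0.286). Of 6 *rrn* genes tested, 3 were called higher and 0 lower by edgeR (0 lower also in DESeq2 and at an unadjusted p under 0.05), where 11.7% of all genes tested were higher. *rrn-2.1* stood at a log2 fold change of −0.49. The call of 1 of the 2 *rrn-1.1* entries (WBGene00004513, 1.05, adjusted p = 0.0468) was lost when any 1 of 3 libraries was left out (adjusted p up to 0.163). *rrn-3.1* had 265, 246 and 221 CPM in *pals-22(pig26)* and 70.8, 158, 81.8 and 174 CPM in wild type (log2 fold change 1.02, SE 0.30, adjusted p = 0.0287). *rrn-4.3*, a 5S rRNA gene with 77.6% of its words shared with other copies, had 32256, 3972 and 52365 CPM in *pals-22(pig26)*, and 8992, 16302, 14115 and 20220 CPM in wild type. Replicate 2 of *pals-22(pig26)* was far below the rest there, and the gene was not called (adjusted p = 0.3). The sense side, counted on the 3 ncRNA genes opposite the rRNA genes, was 9.23%, 0.924% and 14.5% of the reads in *pals-22(pig26)* and 6.91%, 5.72%, 6.54% and 4.57% in wild type. The part of these reads in the other results was not tested beyond leaving that library out.

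Large changes were unevenly spread over the chromosomes. Of the 261 rises of over 4-fold, 98 were on chromosome V, which held 1388 of the genes tested and which also carries many members of the expanded families. Of the 63 falls of over 4-fold, 26 were on the X chromosome, with 738 genes tested. The X chromosome also held 39 of the 261 rises, and chromosome V 13 of the 63 falls. On X, 106 genes (14.4%) were called higher and 197 (26.7%) lower, beside 11.7% and 14.6% of all genes tested. On chromosome V, 236 of 1388 genes were called higher and 210 lower. Chromosome III had the smallest share of rises among the nuclear chromosomes, with 124 genes (8.06%) higher and 195 (12.7%) lower. Median log2 fold changes ran from −0.03 to 0.04 over the 6 nuclear chromosomes.

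Reads on the transgene and on the mutated gene itself were examined last. TagRFP sRNAs were at 201, 199 and 204 CPM in *pals-22(pig26)* and 137, 132, 88.4 and 138 CPM in wild type. The groups did not overlap (log2 fold change 0.70, SE 0.24, adjusted p = 0.0506), but the call was lost without any mutant library or wild-type replicate 3, with an adjusted p of up to 0.127. TagRFP mRNA was at 44804, 37414 and 42228 CPM in *pals-22(pig26)* and 94882, 100975, 100133 and 69938 CPM in wild type (−1.14, adjusted p = 0.0663). *pals-22* (III:132418-134401) had 158, 141 and 157 CPM of sRNA in *pals-22(pig26)* and 212, 211, 200.5 and 208 CPM in wild type (−0.45, SE 0.09, adjusted p = 0.00147). In N2 its sRNAs were not called (0.02), and the difference between the backgrounds was −0.44 (adjusted p = 0.0155). Its mRNA was called higher (0.83). These counts cover the whole gene and not the deleted part alone, so they do not check the genotype labels.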

How the data were processed

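Members and gene lists were chosen with earlier results of these data known. According to the methods, the authors removed adapters (CutAdapt), retained sRNA reads between 15 and 30 nt, aligned to ce11 (ShortStack) and deposited whole, unnormalized read counts per gene from featureCounts. Versions are not given in the sources used here. For mRNA, the authors deposited estimated counts per gene from kallisto, 84.8% of them not whole, which were rounded. The N2 mRNA table was not used here.

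Counts were tested with edgeR 4.0.16 (R 4.3.3): a quasi-likelihood fit of all 14 *otIs356* libraries, 1 group per genotype, TMM scaling, Benjamini-Hochberg adjustment, two-sided, called at an adjusted p under 0.1. mRNA genes passed filterByExpr (minimum count 10, total 15). N2 was fitted on its 6 libraries, and the difference between backgrounds on 13. Biotype shares were compared by exact permutation. Fits were tested on simulated data. Alternatives were DESeq2 1.42.0, other scalings and filters, a replicate block and each library left out. Symbols, biotypes and positions are from Ensembl release 115 (WBcel235, the assembly of ce11).

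Named genes were the 10 largest rises and 10 largest falls among called genes without overlap and with at least 5 CPM in the higher group, TagRFP, the gene with most reads of each biotype, the 2 with the smallest adjusted p of each list, and *pals-22*, *pals-25*, *vsra-1*, *sago-2*, *drh-1*, *rrf-1* and *zip-1*. Other members of the lists, and genes marked so, were chosen after their values were seen. No *msp* gene passed the filter (0 of 31). Replicate libraries differed by more than sampling noise. That counts are antisense follows from the values, and genes that overlap on a strand or share 22-base words can share reads.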

Additional observations from a re-analysis of the deposited data

Results flagged for a closer look

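In 8 of 79 groups of 4 wild-type libraries, 1 library lay far from the other 3. Chance flags about 1 in 20 groups of continuous values, a rate that does not hold for counts near 0. Where 1 library has a read and the other 3 have 0, the group is always flagged, as for ZC196.3 and Y6E2A.7. The number of flags can therefore not be weighed against chance. The highest library stood apart for ZC196.3 (0.0730 CPM), Y6E2A.7 (0.143 CPM) and *eol-1* (1.14256 CPM). The lowest stood apart for TagRFP (88.4 CPM), *linc-22* (60371 CPM), *fbxa-30* (12.6 CPM), *math-22* (2.07 CPM) and F10C2.11 (5039.5 CPM).

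Of 67 named genes tested in the joint fit, the change differed between *otIs356* and N2 in 26. Over all 7774 genes of that fit, 9.15% had a more positive change in *otIs356* and 7.82% a more negative one. The named genes include those picked for the largest changes in the same *otIs356* libraries, so their count does not stand for genes at large. The differences below are log2 fold changes in *otIs356* minus those in N2. Among the largest rises it was −2.63 for B0507.6. Among the largest falls it was −6.90 for WBGene00012079, −6.25 for *nhr-14*, −5.15 for F45E1.1, −4.92 for *nhr-25* and −5.32 for *clik-1*. It was −5.59 for Y39A1A.9, −4.39 for *hhat-1*, −3.35 for C17H11.2 and −2.59 for *hil-7*. Among F-box and MATH-domain genes it was 0.80 for *fbxa-30*, 0.95 for *fbxa-47*, 2.14 for *fbxb-99*, −0.55 for *fbxb-72* and 1.26 for *math-24*. Among genes of RNA silencing and their targets it was −1.20 for *alg-1*, 0.52 for *eri-6*, 0.92 for K02E2.6 and 0.56 for W04B5.8. The collagen genes *col-38* and *col-97* had −1.37 and −1.56 and the histone gene *his-41* 1.22. The tRNA gene WBGene00022983 had 0.86, the antisense RNA gene *anr-35* 0.31, ZK384.7 opposite *mir-262* 1.07, and *pals-22* −0.44. Strain background and sequencing experiment cannot be told apart in these differences.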

How the results depend on the processing

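The 942 higher and 1174 lower sRNAs, 2116 calls in all, were between 1772 and 2655 under the alternatives with every library and between 1658 and 1987 when 1 library was left out. By direction, 742 were lower with library totals alone and 1416 higher with no low-count filter, each over 1.5 times from the first count. Replicate numbers did not pair the sRNA libraries (correlations of same-numbered deviations 0.049, 0.059 and 0.099). With a replicate block there were 2021 sRNA calls, and 84 of 85 named genes kept direction and side of the threshold. Between mRNA libraries these correlations were −0.00537, −0.0885 and 0.399, and *pals-22(pig26)* replicate 1 had 0.438 with wild-type replicate 4. In mRNA, 1820 calls became 3584 with DESeq2 and 5189 with the block, and 628 to 5384 with 1 library left out (5384 without wild-type replicate 4). In N2, 2835 calls became 5606 with library totals alone, of which 89.2% were rises in place of 46.9%, and 2290 to 2936 with 1 library left out. With library totals alone the share of rises moved to 81.8% in mRNA, against 53.1%, and to 20.3% in place of 53.9% in the joint fit. The joint fit gave 1319 calls, and 1047 to 1529 with 1 library left out. *eri-6*, not called, turned to 0.0275 with library totals alone.

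Of the biotype ratios, TMM-scaled totals gave 0.951 for protein-coding, 1.39 for lincRNA, 0.99 for pseudogenes, 0.838 for antisense RNA and 1.26 for snRNA. With ncRNA reads left out of the totals, these were 0.878 for protein-coding, 1.29 for lincRNA, 0.916 for pseudogenes and 0.772 for antisense RNA. Without the leading gene they were 0.98 for protein-coding, 0.961 for snoRNA and 1.09 for antisense RNA. With rRNA-derived reads left out, chosen after seeing the data, they were 0.828 for ncRNA, 1.54 for lincRNA and 1.40 for snRNA. With 1 library left out, protein-coding ran from 0.952 to 1.06, pseudogenes from 0.978 to 1.11 and miRNA from 0.823 to 1.05. With 1 library left out, where the smallest unadjusted exact p is 0.0667 or 0.1, no biotype passed. The causes were not tested. Rises from 1 to 3 wild-type reads are limited by depth.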

Other observations

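Genes in this part were chosen after their values were seen. Of 53 nuclear hormone receptor genes (*nhr*) tested, 8 were called higher and 19 lower, with a median log2 fold change of −0.18. Over all genes tested, 11.7% were called higher and 14.6% lower. *nhr-58* (V:532259-534070) had 38.4, 36.2 and 39.2 CPM in *pals-22(pig26)* and 465, 343, 319 and 273 CPM in wild type (−3.21, SE 0.20, adjusted p = 6.15e-08 in edgeR), and in N2 it was not called (0.10). Of 12 heat shock genes (*hsp*), edgeR called 0 higher and 6 lower in sRNA (0 higher also in DESeq2 and at an unadjusted p under 0.05), while 4 of 11 were higher in mRNA. In N2 sRNA, 4 of the 12 were called higher and 0 lower (4 and 0 also in DESeq2 and at an unadjusted p under 0.05), and the change of 6 differed between the backgrounds. Shares called higher over all genes tested were 5.78% in mRNA and 18.3% in N2 sRNA. In the joint fit, the change was called more positive in *otIs356* for 9.15% of all genes tested and more negative for 7.82%. Other genes with lower sRNA included *lag-2*, which encodes a Notch ligand, with 101, 81.0 and 87.4 CPM in *pals-22(pig26)* and 367, 305, 303 and 285 CPM in wild type (−1.81). *nipi-4* stood at 88.0, 83.4 and 97.3 CPM in *pals-22(pig26)* and 365, 361, 378 and 304 CPM in wild type (−1.98). No library of the mutant reached the lowest wild-type one for these 3 genes. sRNAs on *unc-54*, the major myosin heavy chain of body wall muscle, were at 330.2, 392.4 and 349 CPM in *pals-22(pig26)* and 711, 680.0, 845 and 701 CPM in wild type (−1.04), but were called higher in N2 (1.23). *flp-12*, a neuropeptide gene, had a count of 0 in each mutant library and 3.43, 2.55, 2.83 and 3.71 CPM in wild type.

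Some abundant siRNA loci rose. K02E2.11 (V:20383315-20384405), near K02E2.6, had 1253, 1398 and 1424 CPM in *pals-22(pig26)* and 232, 281, 342 and 388 CPM in wild type (2.13). The lincRNA gene C39B5.16 (III:2233641-2234033) lies close to *fbxa-47* and had 1376, 1596 and 2025 CPM in *pals-22(pig26)* and 212, 301, 422 and 448 CPM in wild type (2.27). Y47H10A.5 had 1873, 2636 and 2549 CPM in *pals-22(pig26)* and 464, 454, 451 and 586 CPM in wild type (2.27), with every mutant library above wild type for all 3 genes. Their rises were larger than in N2 by 0.96, 1.20 and 1.45 on the log2 scale, and each difference was called in the joint fit.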
